A study of Mus musculus with 2 samples.

Results

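*Il1rl1* encodes ST2, the chain that binds the alarmin IL-33, and *Il1rap* encodes the accessory chain that completes the receptor. *Myd88* encodes the adaptor through which the receptor signals, and *Gata3* and *Rora* encode transcription factors of type 2 and tissue-resident lymphocytes. These 5 genes, of 31053 mouse genes measured, were taken by name and followed across lineages of tumor T cells. IL-33 is released by damaged or stressed cells and is bound by ST2 on regulatory T (Treg) cells, type 2 helper T cells, type 2 innate lymphoid cells and mast cells. In tissues, Treg cells that carry ST2 often also express GATA3 and the growth factor amphiregulin (*Areg*), and ROR-alpha has been described in Treg cells of the skin.

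T cells expressing the TCR-β chain were sorted on day 9 from tumors grown after intradermal inoculation of 100000 cells of the melanoma line B16 or of B16–IL-33, a line derived from it that expresses IL-33. The mice were of the C57BL/6 background, and neither their age nor the number of animals behind the pool is given for these libraries in the sources used here. Cells of both tumors were labelled with hashtag antibodies, pooled, and sequenced from the 5′ end on the 10x Chromium platform as 1 gene expression library, 1 hashtag library and 1 T cell receptor library. The 4 hashtags name a tumor and a number, not an animal, so each tumor is 1 sample and no comparison below has a replicate. Intervals given with values are 95% intervals of counting error only, and no p-value can be had from cells of 1 pool.

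Of 14035 barcodes, 9078 cells had 200 to 2500 detected genes and under 5% mitochondrial unique molecular identifiers (UMIs), and they held 26606999 UMIs of mouse genes, with a median of 2467 per cell. Gates were set on the UMIs of each cell. Treg cells had at least 1 *Foxp3* UMI and no *Cd8a* or *Cd8b1* (2609 cells), and conventional CD4+ T (Tconv) cells had *Cd4* without *Foxp3* or CD8 genes (1769 cells). CD8+ T cells had more *Cd8a* and *Cd8b1* than *Cd4* and *Foxp3* UMIs (1260 cells). Natural killer T (NKT) cells had *Zbtb16* without *Foxp3* or CD8 genes (81 cells, of which 21 were also in the Tconv gate), and myeloid cells had *Csf1r* without *Cd3e* (129 cells). The other 3270 cells, 36.0% of those kept, entered no gate. Among 5 T cell genes, at least 1 was detected in 98.5% to 98.9% of the cells of each T cell gate and in 32.6% of myeloid cells. Of 27 NKT-gate cells with an assembled alpha chain, 16 carried the invariant *Trav11*–*Traj18* chain. Summed myeloid markers stood at 365 CPM (UMIs per 1000000 UMIs of the same cells) in Treg, 368 in Tconv, 390 in CD8+ and 532 in NKT cells, against 16831 in myeloid cells. Of the markers of mast cells and basophils, which also carry ST2, *Cpa3*, *Mcpt8*, *Fcer1a*, *Ms4a2* and *Gata2* were at 0 UMIs in every gate and only *Kit* was detected.

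*Il1rl1* was the member that differed most among the Treg, Tconv and CD8+ gates. It lies on chromosome 1 (GRCm38, positions 40429570 to 40465415, plus strand), and gene-level counts from 5′ reads do not separate the membrane-bound from the soluble form. RefSeq gives it 2 transcription starts, 10059 bp apart. The bases before each start are shown because *Gata3*, which encodes a factor that binds GATA words, is another member. Capitals mark 4 GATA words, AGATAA and its variant AGATAG as well as TGATAA and its variant TGATAG, on either strand.

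*Il1rl1* upstream start, chr1:40429320-40429569, plus strand, GRCm38.p6: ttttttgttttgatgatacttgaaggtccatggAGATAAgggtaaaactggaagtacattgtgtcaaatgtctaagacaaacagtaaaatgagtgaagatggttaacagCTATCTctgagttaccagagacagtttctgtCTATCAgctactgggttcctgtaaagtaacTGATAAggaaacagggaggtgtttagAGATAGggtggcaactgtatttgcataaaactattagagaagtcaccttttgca
*Il1rl1* downstream start, chr1:40439379-40439626, plus strand, GRCm38.p6: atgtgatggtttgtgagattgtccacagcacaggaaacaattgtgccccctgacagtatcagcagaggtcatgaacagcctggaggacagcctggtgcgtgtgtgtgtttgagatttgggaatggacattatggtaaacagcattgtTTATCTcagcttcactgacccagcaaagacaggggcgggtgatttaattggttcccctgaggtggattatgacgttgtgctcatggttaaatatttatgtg

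The upstream window held 5 GATA words and the downstream window 1. Of 32851 RefSeq promoter windows of this kind, 26.5% held at least 1 such word and 0.0426% held at least 5. The *Rora* promoter held 1 word, and none was found in the windows of *Il1rap*, *Gata3* and *Myd88*. The ROR half-site AGGTCA, searched on both strands and present in 14.0% of windows, was found once, in the downstream *Il1rl1* window. These are matches of letters, not sites of binding.

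In Treg cells, *Il1rl1* had 984 UMIs, a level of 119 CPM (112–127). Tconv cells had 188 UMIs, or 37.4 CPM (32.3–43.2), and CD8+ T cells had 81 UMIs, or 16 CPM (12.7–19.9). Over the pool of both tumors the level was thus highest in Treg cells, and the intervals of these 3 lineages did not overlap. In the few cells with a B16 hashtag, given below with the tumors, this order was not detectable. NKT cells had 2 UMIs (7.19 CPM, 0.870–26.0) and myeloid cells 4 UMIs (6.16 CPM, 1.68–15.8), and neither differed from the other or, for NKT cells, from CD8+ T cells beyond counting error.

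The *Il1rl1* level in Treg cells was 3.18 times that in Tconv cells (2.72–3.74) and 7.43 times that in CD8+ T cells (5.92–9.44). In NKT cells it was 0.192 times that in Tconv cells (0.0231–0.703), and in myeloid cells 0.0518 times that in Treg cells (0.0141–0.133). A ratio of at least 2 or at most 0.5 in a gene with at least 50 UMIs over both gates was taken as past the threshold. Of the 4 members with enough UMIs, *Il1rl1* alone passed it between Treg and Tconv cells, a comparison in which 4.4% of 9280 genes were higher and 2.08% lower. Against CD8+ T cells, *Il1rl1*, *Gata3* and *Rora* were higher, where 9.53% of 9288 genes were and 2.79% were lower. *Il1rl1* was also the 1 member lower in NKT than in Tconv cells, where 12.4% of genes were lower and 3.31% higher, a call from 2 NKT UMIs that was lost without the upper limit on detected genes (ratio 0.771), and *Il1rl1*, *Gata3* and *Rora* were lower in myeloid than in Treg cells, where 32.2% of genes were lower and 9.65% higher.

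**Figure D1:**
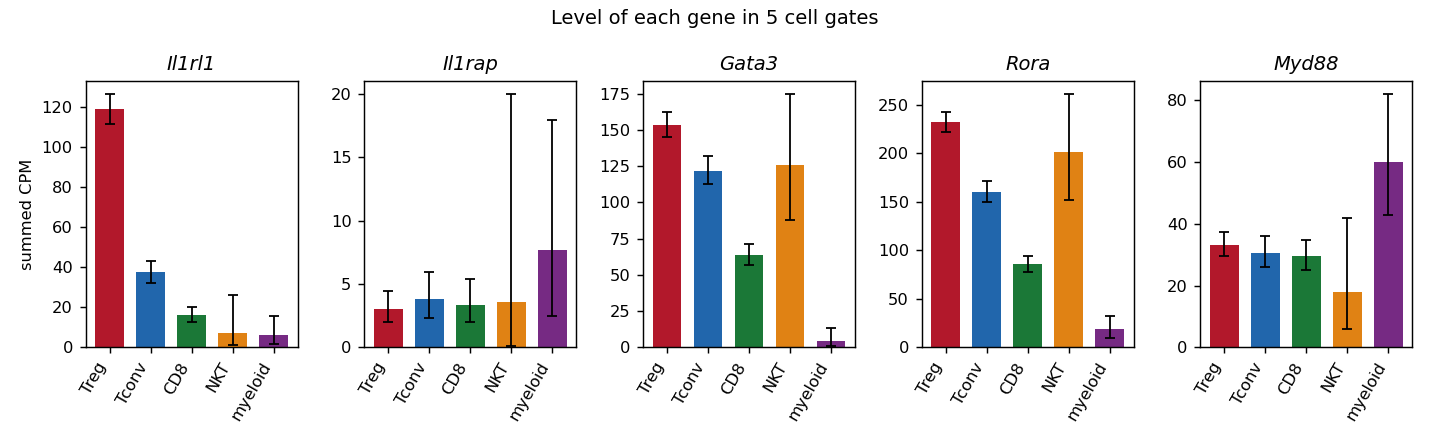
Summed level of each of the 5 genes (CPM, linear axis from 0, a scale of its own for each gene) in the 5 gates; bars are the level and whiskers the 95% Poisson interval of counting error. *Il1rl1* stood at 119 CPM in Treg cells against 37.4 in Tconv cells, whereas *Myd88* was near 30 CPM in the 3 large T cell gates and highest in myeloid cells.

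Detection in single cells gave the same order. An *Il1rl1* UMI was found in 504 of 2609 Treg cells (19.3%), 106 of 1769 Tconv cells (5.99%) and 44 of 1260 CD8+ T cells (3.49%). Since the median depth differed between gates, from 2498 UMIs in Tconv to 3462.5 in CD8+ and 4863 in myeloid cells, each cell was also thinned to 1500 UMIs and shallower cells were left out. The share with a UMI was then 13% in Treg (11.6–14.5), 3.90% in Tconv (2.94–5.0) and 1.63% in CD8+ T cells (0.997–2.57). Myeloid cells had 0.972% (0.0215–4.63) and NKT cells 1.16% (0.0320–6.85). Before thinning, 3 of 129 myeloid cells had a UMI, and 9 of the 129 were also in the Treg gate. Myeloid cells are not a known negative, since the paper names macrophages and dendritic cells among those with the receptor. The wide myeloid interval overlapped those of Tconv, CD8+ and NKT cells, so only the Treg share was separated from it after thinning. An interval this wide could not separate a Tconv share of 3.90%. By level, the intervals of Treg and Tconv cells lay above that of myeloid cells, and those of CD8+ and NKT cells overlapped it.

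Of all 869 kept cells with an *Il1rl1* UMI, 58.0% were in the Treg gate, 12.2% in the Tconv gate, 5.06% in the CD8+ gate and 24.2% in no gate. Among positive Treg cells, 256 had 1 UMI, 127 had 2 and 121 had at least 3, up to 14 in a cell. Positive Tconv cells numbered 65, 24 and 17 in the same classes, with at most 8 UMIs. Multiple UMIs per cell were thus seen in Tconv as in Treg cells. Of the 44 positive CD8+ T cells, 33 had 1 UMI, 4 had 2 and 7 had at least 3, and 1 cell had 12. *Foxp3* was at 88.2 CPM in these 44 cells and at 18.7 CPM in the other CD8+ T cells (16 and 91 UMIs; ratio 4.72, 2.59–8.09), with *Il2ra*, *Ctla4*, *Ikzf2* and *Tnfrsf18* also at least 2-fold higher. *Gata3* was at 99.3 against 62.4 CPM (1.59, 0.93–2.56) and *Rora* at 165 against 82.7 CPM (2.0, 1.33–2.90), both inside the threshold, which 5.38% of 6856 genes passed upward and 13.6% downward. The part of mixed barcodes in this was not tested.

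*Il1rap*, the accessory chain, was detected in 103 kept cells with 104 UMIs in all. Its level was 3.03 CPM in Treg (1.96–4.47), 3.78 in Tconv (2.28–5.91) and 3.36 in CD8+ T cells (1.96–5.39). NKT cells had 1 UMI and myeloid cells 5 (7.71 CPM, 2.50–18.0). All 5 intervals overlapped, and no order of lineages like that of *Il1rl1* was detectable for its partner chain. After thinning, 0.519% of Treg and 0.643% of Tconv cells had an *Il1rap* UMI. The gene lies on chromosome 16 (26581704 to 26730117).

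*Gata3*, the factor that directs type 2 helper T cells, had 1268 UMIs in Treg cells (153 CPM, 145–162) and 612 in Tconv cells (122 CPM, 112–132). The NKT level, 126 CPM (87.6–175, 35 UMIs), lay between them and overlapped both. CD8+ T cells had 63.7 CPM (57.0–71.1) and myeloid cells 4.62 CPM from 3 UMIs. *Gata3* was detected in all T cell gates, 1.26 times as high in Treg as in Tconv cells (1.14–1.39) and 2.41 times as high as in CD8+ T cells (2.13–2.73). After thinning, 20.3% of Treg, 15.3% of Tconv, 18.7% of NKT, 9.14% of CD8+ and 0.620% of myeloid cells had a UMI. The locus, on chromosome 2 (9857078 to 9890034, minus strand), overlaps *9230102O04Rik* on the same strand, so counts could be split between them.

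*Rora* was ordered in the same way. Its level was 232 CPM in Treg cells (221–242), 201 in NKT cells (152–261), 160 in Tconv cells (149–172), 85.7 in CD8+ T cells (77.8–94.2) and 18.5 in myeloid cells (9.56–32.3). The NKT interval overlapped those of both Treg and Tconv cells. The ratio of Treg to Tconv cells was 1.44 (1.33–1.57), and that of Treg to CD8+ T cells 2.70 (2.43–3.01). After thinning, *Rora* was detected in 27.1% of Treg and of NKT cells and in 18.5% of Tconv cells. The gene lies on chromosome 9 (68653786 to 69388246, plus strand).

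*Myd88* was at similar levels in the 3 large T cell gates. It had 33.3 CPM in Treg (29.5–37.5), 30.7 in Tconv (26.0–35.9) and 29.5 in CD8+ T cells (24.9–34.6), and NKT cells had 5 UMIs (18.0 CPM, 5.83–41.9). The ratio of Treg to Tconv cells was 1.09, with an interval of 0.888 to 1.33 that includes 1. Myeloid cells had the highest level, 60.1 CPM (42.7–82.2), which was 1.81 times that of Treg cells (1.26–2.53). The locus, on chromosome 9 (119335934 to 119341411, minus strand), overlaps *Slc22a14* on the same strand.

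The wider pathway was read from a list of 20 genes from IL-33 to NF-κB, chosen with earlier results of these data known. Of its 16 members with enough UMIs, 1 was higher in Treg than in Tconv cells, *Il1rl1* itself, where 4.4% of all genes were. The other 15 were within the threshold, and the median ratio was 1.29 against 1.07 over all genes. *Bcl3*, an atypical member of the IκB family, was at 155 against 77.9 CPM (ratio 1.99), just inside the threshold. Against CD8+ T cells 2 of the 16 were higher, *Il1rl1* and *Bcl3*, where 9.53% of all genes were. *Nfkb1*, an NF-κB subunit, was at 136 against 117 CPM, *Tab2*, an adaptor of the TAK1 kinase, at 113 against 89.4, and *Rel*, another subunit, at 104 against 76.1. *Il33* had 14 UMIs in all kept cells. In NKT over Tconv cells 2 of the 16 were lower, *Il1rl1* and *Ikbkg*, where 12.4% of all genes were. In myeloid over Treg cells 5 were lower, where 32.2% of all genes were. All of these counts were near the share over all genes.

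Of 8 other genes of the IL-1 family, 4 had enough UMIs and 2 were higher in Treg than in Tconv cells, where 4.4% of all genes were, with a list median ratio of 1.35. *Il1r2*, the decoy receptor of IL-1, was at 95 against 43.8 CPM (2.17-fold, 1.86–2.53). *Il1rn*, the receptor antagonist, was at 116 against 37.4 CPM (3.11-fold, 2.65–3.65), and at 706 CPM in myeloid cells. The receptor chains for IL-18 lay the other way, *Il18r1* at 49.5 CPM in Treg and 92.4 in Tconv cells and *Il18rap* at 23.1 and 44.0, both within the threshold. *Il18r1* reached 212 CPM in NKT cells. Of 6 toll-like receptors that use MyD88, only *Tlr1* had enough UMIs between Treg and Tconv cells, at 14.0 and 9.76 CPM. Between myeloid and Treg cells *Tlr2* also had, and it was 20.2-fold higher in myeloid cells (83.2 against 4.12 CPM). Among related genes, the GATA cofactor gene *Zfpm1* was at 16.6 CPM in Treg and 18.5 CPM in Tconv cells, and *Gata4* and *Gata6* had no UMI.

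Each lineage was next split into cells with a *Mki67* or *Top2a* UMI (cycling), cells with *Ccr7* or *Lef1* and neither of those (genes of naive and recirculating T cells), and cells with none of the 4. Cells also in the myeloid gate were left out, as were Tconv cells that also entered the NKT gate. In every state *Il1rl1* was higher in Treg than in Tconv cells and higher in Tconv than in CD8+ T cells. In Treg cells it was at 114 CPM in 511 cycling cells (99.6–130), 90.4 CPM in 387 *Ccr7* or *Lef1* cells (75.6–107) and 130 CPM in 1702 others (120–141). In Tconv cells the 3 values were 48.6, 26.5 and 41.8 CPM, and in CD8+ T cells 15.4, 10.2 and 20.03 CPM. The lowest state was thus the *Ccr7* or *Lef1* cells in all 3 lineages, with ratios to the cells with none of the 4 of 0.693 (0.570–0.838), 0.635 (0.431–0.919) and 0.509 (0.259–0.943).

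*Rora* showed the same in Tconv cells, with 114 CPM in *Ccr7* or *Lef1* cells and 192 CPM in the others (ratio 0.593, 0.496–0.706), and in CD8+ T cells (67.0 and 107 CPM; ratio 0.626, 0.487–0.798). In Treg cells its ratio was nearer 1 (0.877, 0.772–0.995). For *Gata3* the ratio was 0.745 in Tconv cells (0.612–0.903), 0.762 in CD8+ T cells (0.569–1.01) and 0.986 in Treg cells (0.847–1.14). In Treg cells *Gata3* thus did not differ between *Ccr7* or *Lef1* cells and the others beyond counting error. *Myd88* had its highest value in cycling cells of each large lineage (38.4, 38.4 and 34.5 CPM in Treg, Tconv and CD8+ T cells), with intervals of the ratio to the other cells that all include 1.

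**Figure D2:**
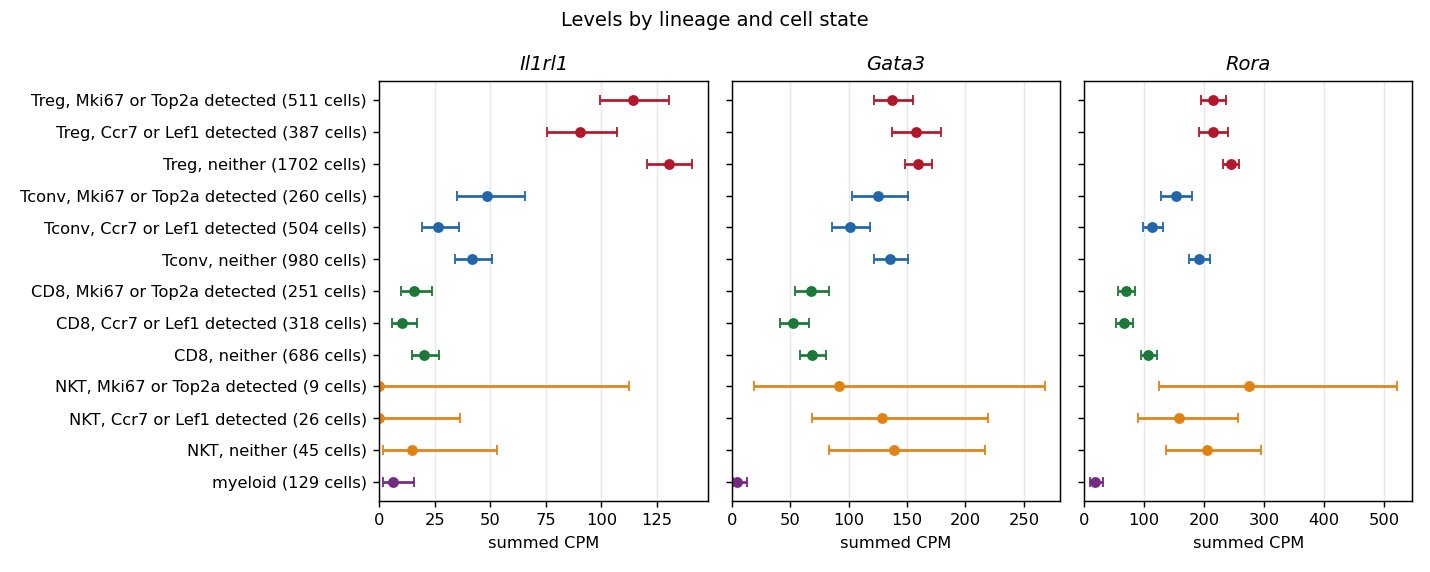
Summed levels (CPM, linear axes) of *Il1rl1*, *Gata3* and *Rora* in 13 groups of lineage and cell state; points are the level, whiskers the 95% Poisson interval of counting error, and the number of cells stands beside each group. For *Il1rl1*, every Treg group lay above every other group, and within Treg, Tconv and CD8+ T cells the group with *Ccr7* or *Lef1* was lowest.

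Over these 13 groups, the 5 genes whose log2 levels (with 10 CPM added) correlated best with each member were listed, among 7939 genes. The groups share 1 library, so the correlations are descriptions. For *Il1rl1* they were *Rapsn* (Pearson's r = 0.975), *Rln3*, *Sh3rf1*, *Itgb8* and *Slc9a3r1* (0.958), and for *Il1rap* they were *Osgin2* (0.912), *Vps18*, *Pdcd2l*, *Tmem185b* and *Rabgef1*. *Il1rap* itself had 104 UMIs, fewer than the 200 asked of the listed genes, so its list rests mostly on counting error. For *Gata3* they were *Il2rg* (0.982), the common cytokine receptor chain, *Zc3hav1*, *Fam53b*, *Spint2* and *Shisa5*, and for *Rora* they were *Mxd4* (0.972), *Chd4*, *Smco4*, *Icos* and *Cyld*. For *Myd88* they were *Lsm12* (0.976), *Gtf2e2*, *Gde1*, *Rtn4* and *Slk*. Between members, *Gata3* and *Rora* followed each other most closely (0.921), *Il1rl1* and *Gata3* less (0.482), and *Rora* and *Myd88* had a negative value (−0.558). The groups include myeloid cells, with *Rora* at 18.5 and *Myd88* at 60.1 CPM, and 9 cycling NKT cells, with 275 and 0 CPM. The part of such groups in the negative value was not tested.

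Within the Treg gate, members could also be compared cell by cell. After thinning, 280 of 2155 Treg cells had an *Il1rl1* UMI, and 88 of these had a *Gata3* UMI, where 56.9 cells would be found if the genes were independent. *Gata3* was detected in 31.4% of *Il1rl1*-positive and 18.7% of other Treg cells (odds ratio 2.0, 1.49–2.66). *Rora* was detected in 36.4% and 25.7% (102 cells with both against 75.7; odds ratio 1.66, 1.26–2.18). With *Myd88* the odds ratio was 1.06 (0.547–1.90), and only 1 cell had *Il1rl1* and *Il1rap*, against 1.45 if independent. *Il1rl1* was thus found more often with each of the transcription factor genes at equal depth. This was not particular to them, as *Ikzf2* (1.44, 1.08–1.93) and *Klrg1* (1.36, 1.03–1.80) also lay above 1 with *Il1rl1*. No share over all genes was computed for odds ratios. No such difference was detectable for the adaptor, and the *Il1rap* counts were too low to show one.

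The factors were not found together in the same measure. *Gata3* and *Rora* shared 128 thinned Treg cells against 119 if independent, an odds ratio of 1.15 (0.90–1.45), and before thinning it was 1.28 (1.08–1.52). *Gata3* with *Myd88* went from 1.53 before thinning (1.16–2.01) to 1.13 (0.672–1.85), and *Rora* with *Myd88* from 1.5 (1.15–1.96) to 1.11 (0.695–1.75). Thinning thus brought these pairs nearer to 1, while *Il1rl1* with *Gata3* stood at 2.07 before thinning (1.69–2.53). In unthinned Treg cells, 134 had *Il1rl1*, *Gata3* and *Rora*, 102 had *Il1rl1* and *Gata3* only, 133 had *Il1rl1* and *Rora* only, and 135 had *Il1rl1* alone of the 3. A further 903 Treg cells had none of them.

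In Tconv cells the same pairs were seen in fewer cells. *Gata3* was detected in 28.6% of 56 thinned *Il1rl1*-positive Tconv cells and 14.7% of the rest (odds ratio 2.31, 1.19–4.32), and *Rora* in 30.4% and 18.0% (1.98, 1.03–3.65). In CD8+ T cells 19 thinned cells had *Il1rl1*, and the intervals with *Gata3* (1.18, 0.130–5.06) and *Rora* (2.73, 0.756–8.17) include 1.

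**Figure D3:**
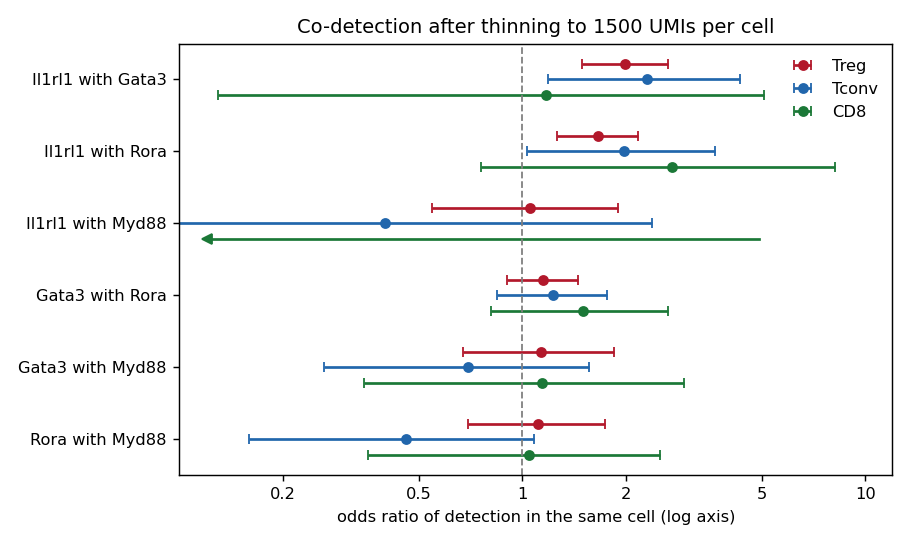
Odds ratio of detection of pairs of members in the same cell (log axis; dashed line at 1) in Treg, Tconv and CD8+ T cells thinned to 1500 UMIs; points are the ratio, whiskers the exact 95% interval of counting error, some of which run past the left edge, and the arrow marks a pair with no shared cell. *Il1rl1* with *Gata3* and with *Rora* lay above 1 in Treg and Tconv cells, whereas pairs with *Myd88* and the pair of *Gata3* and *Rora* had intervals that include 1.

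Levels agreed in direction with detection. In the 504 Treg cells with an *Il1rl1* UMI, *Gata3* was at 236 CPM, against 133 CPM in the 2105 without (ratio 1.77, 1.57–2.0), and *Rora* was at 313 against 212 CPM (1.48, 1.33–1.64). *Myd88* was at 38.5 against 32.0 CPM (1.20, 0.892–1.60). Median depth was close, 2850 and 2772 UMIs. None of these ratios passed the threshold, which 0.776% of 8379 genes did upward and 2.43% downward, and among 4646 genes with at least 200 UMIs in Treg cells *Gata3* ranked 27, *Rora* 96 and *Myd88* 611 by the ratio. After thinning, *Gata3* was detected in 18.1% of Treg cells with 0, 28.3% with 1, 34.8% with 2 and 26.4% with at least 3 *Il1rl1* UMIs (18.8–36.2), and *Rora* in 25%, 33.4%, 37.7% and 36.5%. The intervals of the 3 positive classes overlapped. The class with at least 3 was also deeper, with a median of 3735 UMIs.

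**Figure D4:**
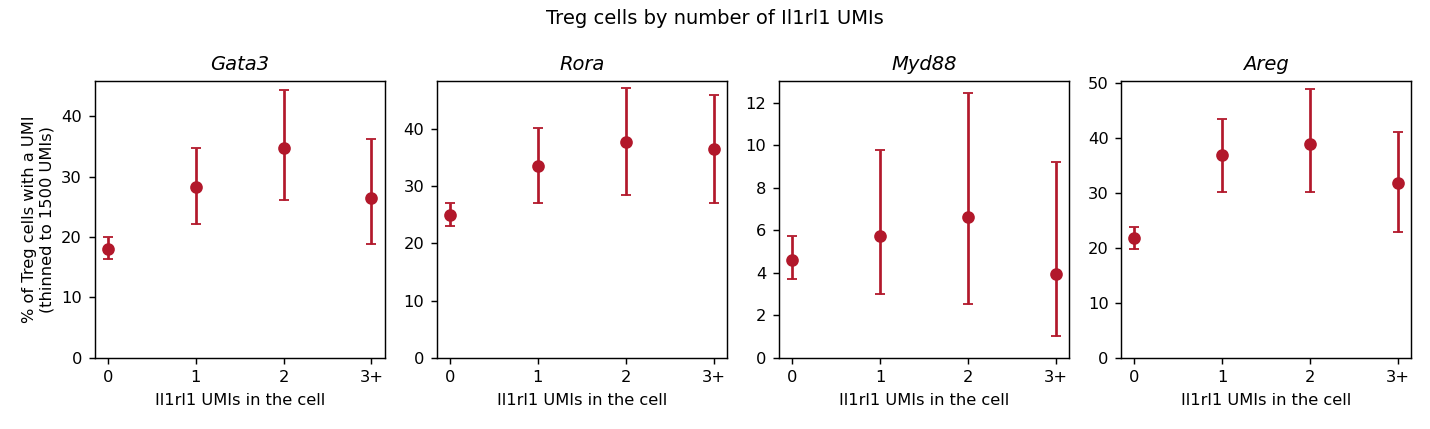
Share of Treg cells (%, linear axis from 0) with a UMI of *Gata3*, *Rora*, *Myd88* and *Areg* after thinning to 1500 UMIs, by the number of *Il1rl1* UMIs in the unthinned cell; points are the share and whiskers the 95% Clopper-Pearson interval. *Gata3*, *Rora* and *Areg* were lowest in cells with 0 *Il1rl1* UMIs, and *Myd88* intervals overlapped across all 4 classes.

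Among the 4646 genes with at least 200 UMIs in Treg cells, the 5 with the highest ratio in *Il1rl1*-positive over *Il1rl1*-negative Treg cells were *Dgat2*, an enzyme of triglyceride synthesis, at 120 against 20.1 CPM (5.96-fold, 4.76–7.49), *Pdzk1ip1* (4.45-fold), *Ccr3*, the eotaxin receptor (3.78-fold), *Lrrc25* (3.33-fold) and *Tnfrsf25*, the receptor for TL1A (2.79-fold). Of 20 type 2 and tissue Treg genes, also chosen with earlier results known, 16 had enough UMIs. Of these, 3 were higher, *Areg*, *Dgat2* and *Il13*, where 0.776% of 8379 genes were higher and 2.43% lower. The median ratio of the list was 1.22 against 0.997 over all genes. *Areg* stood at 1553 against 648 CPM (2.40, 2.28–2.52), and at equal depth it was detected in 37.1% and 22.8% of cells (odds ratio 2.0, 1.52–2.62). It was also found more often with *Rora* (1.46, 1.17–1.81) and with *Gata3* (1.30, 1.02–1.66). *Il2ra* was at 720 against 386 CPM (1.86-fold) and *Foxp3* at 765 against 706 CPM (1.08-fold). *Il10* lay the other way, at 61.7 against 120 CPM (0.513, 0.412–0.631), just inside the threshold, and *Nkg7*, a cytotoxic granule gene, was at 157 against 528 CPM (0.297). The 50 *Il13* UMIs of positive cells came from 5 cells, with 48 in 3 of them. Myeloid markers summed to 211 CPM in positive and 403 CPM in negative Treg cells, and their part in these ratios was not tested.

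The 20-gene list separated the lineages themselves more widely. Between Treg and Tconv cells, 13 of 18 measured genes were higher, from *Maf* (2.01-fold) to *Il2ra* (4.03-fold). *Ctla4* was at 1187 against 421 CPM, *Ikzf2* at 859 against 280 CPM, *Areg* at 827 against 228 CPM and *Klrg1* at 300 against 77.1 CPM. *Il4*, *Il13* and *Bach2* were lower in Treg cells. *Il13* had 54 UMIs in 9 Treg cells, 48 of them in 3 cells, and 139 UMIs in 15 Tconv cells, 121 of them in 3 cells. Its ratio thus rests on few cells. The list's median ratio was 2.74, against 1.07 over all genes, of which 4.4% were higher and 2.08% lower. *Il2ra*, *Ctla4* and *Ikzf2* are themselves genes that mark Treg cells.

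In Tconv cells with an *Il1rl1* UMI (106 cells), *Gata3* was at 256 CPM against 113 CPM in the other 1663 (2.27, 1.78–2.86), past a threshold that 2.64% of 7095 genes passed upward and 7.27% downward. *Rora* was at 247 against 154 CPM (1.60, 1.25–2.01), and *Myd88* had 5 against 149 UMIs (0.479, 0.153–1.14), below the threshold of 0.5 with an interval that includes 1. *Areg* was at 1056 against 171 CPM (6.19-fold), *Il2ra* at 405 against 91.9 CPM and *Klrg1* at 237 against 65.9 CPM. *Cd40lg*, which marks helper T cells, was at 143 and 148 CPM. Summed myeloid markers were at 91.3 CPM in positive and 387 CPM in negative Tconv cells, and their part was not tested. *Il13* had 129 against 10 UMIs, 121 of them in 3 cells, and *Il5* had 23 against 2, all in 4 Tconv cells. Since 1 *Foxp3* UMI defines the Treg gate, Treg cells in which none was captured fall among Tconv cells, and their part in these values was not tested.

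*Gata3* and *Il1rl1* were next read in the 53 Tconv cells with an *Il4*, *Il5* or *Il13* UMI, the cytokines of type 2 helper T cells. *Gata3* was at 249 CPM there (187–324), against 116 CPM in 1716 other Tconv cells (107–126), and *Il1rl1* at 131 CPM (87.8–188) against 33.1 CPM (28.2–38.7). Of the 53 cells 9 had an *Il1rl1* UMI (17.0%), against 5.65% of the others. *Rora* was at 203 CPM (148–272) and 158 CPM (147–170), with overlapping intervals. These cells were deeper, with a median of 3602 against 2462 UMIs. Of the 53 cells, 40 had an *Il4* UMI, and *Il4* was at 104 CPM in NKT cells against 10.6 CPM in all Tconv cells. The Tconv gate held 21 cells that were also in the NKT gate and 17 with the invariant alpha chain. The part of NKT cells in these values was not tested. In the 20 Treg cells with such a cytokine UMI, *Il1rl1* was at 189 CPM (110–303), and in the other 2589 at 118 CPM (111–126), so the Treg level did not rest on them.

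Between tumors, only cells with a hashtag could be compared. Tag UMIs numbered 1730, 0.00757% of the UMIs of the hashtag library, the rest of which matched no tag, so tumor labels rest on few molecules. Of the kept cells, 939 had tags of 1 tumor only, 849 of them by 1 tag UMI. In 245 Treg cells of B16 tumors *Il1rl1* had 17 UMIs in 12 cells, or 18.1 CPM (10.5–28.9). In 55 Treg cells of B16–IL-33 tumors it had 30 UMIs in 13 cells, or 166 CPM (112–236). The level was 9.17 times as high (4.90–17.7), from 47 UMIs in all, fewer than the 50 set for a call. By tag, it was 20.1 CPM (7.37–43.7) and 17.9 CPM (8.94–32.0) for the B16 tags. For the B16–IL-33 tags it was 119 CPM (43.8–260) and 183 CPM (117–273), and no interval of theirs overlapped one of a B16 tag. The value of 119 CPM came from 6 UMIs in 3 of 18 cells, and tags do not name animals, so they are not replicates. Cells with a UMI were 5% (1.38–12.3) and 5% (2.18–9.61) for the B16 tags. They were 16.7% (3.58–41.4) and 27.0% (13.8–44.1) for the B16–IL-33 tags, the first of which overlapped both B16 shares. With the tags of each tumor joined and after thinning, 2.69% (1.02–5.92) of B16 and 11% (3.62–23.6) of B16–IL-33 cells had a UMI, which overlap.

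The other members did not differ beyond counting error between the tagged Treg cells. *Gata3* was at 120 CPM in B16 (99.0–144) and 166 CPM in B16–IL-33 (112–236), a ratio of 1.38 (0.890–2.08). *Rora* was at 148 and 133 CPM (0.897, 0.556–1.39), *Myd88* at 28.7 and 22.1 CPM (0.770, 0.196–2.21), and *Il1rap* had 2 and 0 UMIs. *Gata3* and *Rora*, the 2 with enough UMIs, thus stayed within the threshold, which 2.58% of 3019 genes passed upward and 4.64% downward. *Areg* was at 332 and 1413 CPM (4.26, 3.6–5.04), from 312 UMIs in 64 cells and 256 UMIs in 22 cells. The shares of cells with an *Areg* UMI, 26.1% (20.7–32.1) and 40% (27.0–54.1), overlapped. Tagged cells differed from the rest in other ways. Summed myeloid markers were at 946 CPM in tagged B16 and 1104 CPM in tagged B16–IL-33 Treg cells, against 365 CPM in the whole gate, and median depth was 3401 and 2467 UMIs. In the 2284 Treg cells without a tag, *Il1rl1* was at 132 CPM (124–141), *Gata3* at 158 CPM and *Rora* at 245 CPM. With 30 B16 and 2 B16–IL-33 Treg cells holding at least 2 tag UMIs, *Il1rl1* had 0 and 2 UMIs, and no ratio could be had.

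**Figure D5:**
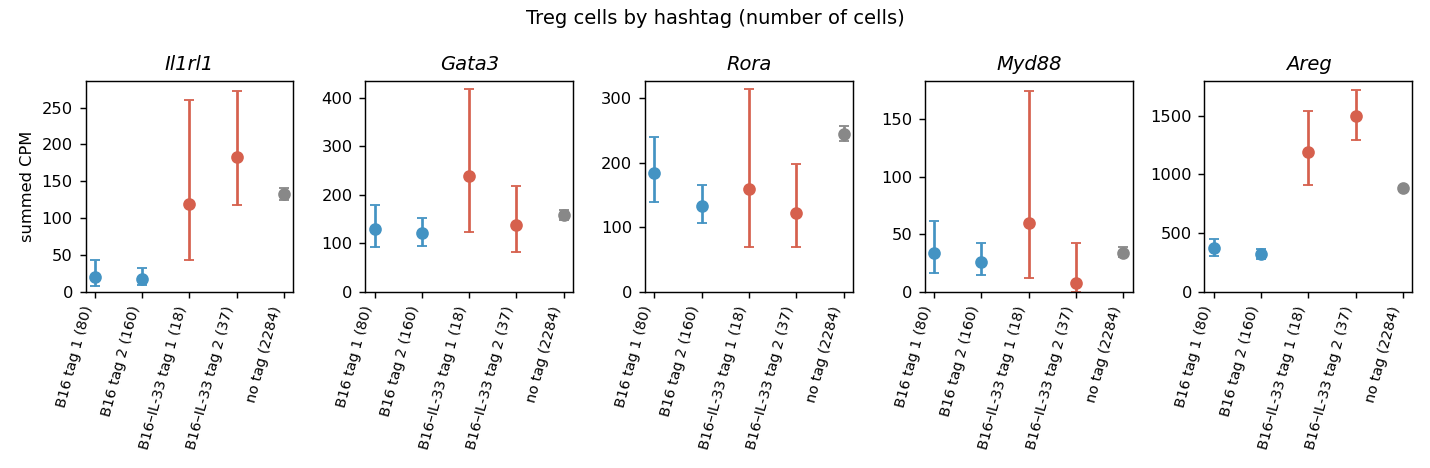
Summed levels (CPM, linear axes from 0) of 4 members and *Areg* in Treg cells by hashtag, with the number of cells in parentheses; points are the level and whiskers the 95% Poisson interval of counting error. *Il1rl1* and *Areg* were lower for both B16 tags than for both B16–IL-33 tags, while the intervals of *Gata3* and *Rora* overlapped between tumors.

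Tagged cells of the other lineages were few. In Tconv cells *Il1rl1* had 8 UMIs in 164 B16 cells and 2 in 17 B16–IL-33 cells, a ratio of 2.57 with an interval of 0.266 to 12.9. *Gata3* had 61 UMIs in the B16 cells (134 CPM) and 0 of 44416 UMIs in the B16–IL-33 cells, which allows up to 67.5 CPM for 3 counts, and the interval of the ratio reached up to 0.641. *Rora* had 75 and 3 UMIs (0.411, 0.0830–1.25). *Areg* had 38 UMIs in 15 B16 cells and 26 UMIs in 4 B16–IL-33 cells (7.04, 4.10–11.9). In CD8+ T cells *Il1rl1* had 7 UMIs in 103 B16 cells and 0 in 19 B16–IL-33 cells. *Gata3* had 36 and 4 (0.544, 0.141–1.52) and *Areg* 26 and 1 (0.188, 0.00459–1.15). Among B16-tagged cells *Il1rl1* was thus at 18.1 CPM in Treg (10.5–28.9), 17.5 in Tconv (7.56–34.5) and 17.0 in CD8+ T cells (6.83–35.0). These intervals overlapped, so the order over the pool was not detectable in them. Among B16–IL-33-tagged cells it was at 166 CPM in Treg (112–236), 45.0 in Tconv (5.45–163) and 0 in CD8+ T cells (0–43.8).

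Clonotypes gave a last comparison within Treg cells. Of 1705 Treg cells with a clonotype, 98 belonged to 46 clones of at least 2 Treg cells. *Il1rl1* had 12 UMIs in these (35.3 CPM) and 568 in the 1607 cells of single-cell clones (96.4 CPM), a ratio of 0.366 (0.188–0.645). Both levels lay below the 119 CPM of all 2609 Treg cells, so the cells without a clonotype, left out here, were higher. The share of all genes past the threshold was not computed for this comparison. After thinning, 4.16% (1.25–11.2) and 11.3% (9.79–13.1) of cells had a UMI. Of the 46 clones, 39 had no *Il1rl1*-positive cell, 7 were mixed and none was positive in all its cells, and the largest had 4 cells. At such low shares of detection, clones positive in all their cells would be rare, so these counts do not show how clones differ. *Gata3* (1.02, 0.752–1.37) and *Rora* (0.921, 0.712–1.17) did not differ beyond counting error between expanded and single clones, and *Myd88* had a ratio of 1.62 (0.938–2.62).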

How the data were processed

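Gene expression was deposited by the authors as raw UMI counts, 1 matrix of genes by barcodes, not normalized, on a combined human and mouse (mm10) reference. The file header names Cell Ranger 3.1.0 and the submitters' processing notes 6.1.1. Hashtag and receptor libraries were deposited as counts of UMIs per tag and per contig. Mouse genes were used. Gates applied to each cell's UMIs as described, and a cell could be in more than 1 gate.

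The members and lists were chosen with earlier results of these data known. Levels are summed UMIs over all mouse UMIs of the cells (CPM), with exact Poisson intervals. Ratios have conditional binomial intervals, shares Clopper-Pearson intervals and odds ratios exact conditional intervals, computed in Python 3.11.15 with NumPy 2.4.6, pandas 2.3.3 and SciPy 1.17.1. Thinning used the hypergeometric expectation at 1500 UMIs without random draws, and the expected number of cells was rounded. A count of 0 allows up to 3 counts. Tumor labels went to cells whose tag UMIs, 1 or more, all named the same tumor. Doublets were not called, and an alternative leaves out 428 cells with at least 2 productive beta chains. The study's own cell filters were those used here. Genes named beyond the members were, by rule, up to 4 of each list with the most UMIs and any past the threshold between Treg and Tconv cells, the 5 most correlated with each member, and the 5 with the highest ratio by *Il1rl1* in Treg cells. Genes set beside the *Il1rl1* classes were taken from the same lists and markers, some of them after their values were seen. The ratio intervals were tested on simulated Poisson counts, and odds ratios on single simulated pairs of genes. Thinned shares were checked against random draws. The Poisson and Clopper-Pearson intervals were not tested, and the simulated counts were not clumped in few cells as some UMIs here were.

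Loci come from GENCODE vM21 (GRCm38) and sequences from RefSeq, in which all 5 members were found. Motif searches covered up to 250 bases before each start. Protein sequences were not used here. The result of 1 gene of the lists is not reported here.

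Besides the markers given with the results, summed levels in Treg, Tconv, CD8+, NKT and myeloid cells, in this order, were 4341, 1333, 723, 543 and 129 CPM for 5 Treg genes, 1557, 2171, 11864, 1703 and 267 CPM for 4 CD8 genes, and 687, 970, 160, 320 and 20.03 CPM for 3 Tconv genes. For 3 of 4 NKT genes found in the file they were 8.11, 34.5, 155, 507 and 12.3 CPM, for 5 T cell genes 4027, 3696, 3640, 3119 and 142 CPM, and for 3 naive T cell genes 156, 522, 316, 381 and 43.1 CPM. In the 5 gates, B cell genes reached at most 21.2 CPM, dendritic genes 4.62, melanoma genes 18.5, genes of type 2 innate lymphoid cells 37.4 and fibroblast genes 1.21.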

Additional observations from a re-analysis of the deposited data

Results flagged for a closer look

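*Il1rl1* was also found outside the gates and limits used above. The 3270 kept cells of no gate held 376 *Il1rl1* UMIs in 210 cells, or 50.1 CPM (45.2–55.4), against 6.16 CPM in myeloid cells, and their median depth was 1965 UMIs. The 4957 barcodes outside the limits on genes and mitochondrial share held 517 *Il1rl1* UMIs (30.7 CPM). Of these, 766 barcodes with more than 2500 genes and under 5% mitochondrial UMIs held 165 (12.2 CPM, 10.4–14.3). Human genes of the combined reference had 8562 UMIs over all barcodes, 0.0197% of the total. The source of these UMIs was not tested.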

How the results depend on the processing

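Over 97 results and 607 alternative values, 551 stayed within the counting interval of the value reported, 56 moved beyond it and 0 reversed. A reversal was counted only for ratios past the threshold and for odds ratios whose interval excluded 1. Levels, shares, gene lists and the other ratios could not reverse by this rule. Stricter gates and leaving out cells with at least 2 beta chains moved none of the 89 values computed under each. A Treg gate at 2 *Foxp3* UMIs also moved none of 89. It changed only the Treg gate, so values of the other gates could not move, though they count among the 551. Without the upper limit on genes, Treg levels were 94.9 CPM for *Il1rl1*, 134 for *Gata3* and 197 for *Rora*, ratios of Treg to Tconv cells 2.61, 1.14 and 1.31, and the NKT to Tconv ratio of *Il1rl1* was 0.771, no longer past the threshold. The mean of each cell's CPM gave 153, 177 and 262 in Treg cells and a *Gata3* ratio of 1.40. A mitochondrial limit of 10% gave an *Il1rl1* ratio of 2.71. Thinning to 1000 UMIs gave *Il1rl1* in 10.3% of Treg cells, and without thinning it was 19.3% of Treg, 5.99% of Tconv and 3.49% of CD8+ T cells. With at least 2 tag UMIs, the *Gata3* ratio between tumors was 4.99, from 2 B16–IL-33 cells. A pseudocount of 1 CPM kept 1 of the 5 genes listed for *Il1rl1* and 4 of those for *Gata3*. The causes were not tested. No paired analysis was possible because each tumor is 1 sample. Few tag UMIs, 1 pool, low counts of *Il1rap* and 5′ reads limit what these libraries show.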
